A study of Mus musculus with 4 samples.

Results

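Elastic fibers give skin, vessels and ligaments their recoil. They consist of a core of cross-linked elastin laid down on a scaffold of microfibrils, which are built from fibrillins and carry the microfibril-associated proteins Mfap2, Mfap4 and Mfap5. Fibulins and Emilin1 join elastin to the microfibrils or to the cell surface, lysyl oxidases cross-link the elastin, and the latent TGF-β binding proteins anchor TGF-β to the same scaffold. The periosteum, the sheath around bone, holds such fibers in its outer layer.

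The elastic fiber and microfibril genes described here are 10 genes, *Eln*, *Fbn1*, *Fbn2*, *Mfap2*, *Mfap4*, *Mfap5*, *Fbln1*, *Fbln2*, *Fbln5* and *Emilin1*, taken by symbol from a table of 45802 gene symbols, of which 14415 had a value in all 4 libraries. All 10 were among these. The genes were chosen by symbol for their role in the fiber, with their log2 values in all 4 libraries and the differences between the populations already known, so the difference is given as a description, and no p-value is given for any of the 10 genes.

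The libraries were made from periosteal cells of the femurs and tibias of male Pdgfrα-mTmG mice that were 9 to 10 weeks old. In these mice the *Pdgfra* promoter drives CreER, and tamoxifen (150 mg/kg per day for 5 days) switched cells with promoter activity from membrane tdTomato to membrane GFP. The cells were isolated 14 days after the last injection, grown for 1 passage with 10 ng/mL basic fibroblast growth factor, and sorted as negative for CD31, CD45 and Ter119 into GFP+ (PDGFRα reporter+) and tdTomato+ (PDGFRα reporter-) cells. There were 2 libraries of total RNA from each population, each from the pooled cells of 3 to 6 mice by the sample labels, whereas the methods of the study give a larger pool. The reporter marks cells whose promoter was active when tamoxifen was given and their progeny, and tdTomato+ cells include any cell in which recombination did not occur.

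The table gives 1 quantile-normalized log2 value per gene and library, from −10.07 to 11.73, and leaves a gene without signal blank. The linear unit under the logarithm is not given in the sources used here, and it is not known to be per transcript length, so the levels of different genes were not compared with each other. Where a summed log2 level is given for a list of markers, it is the logarithm of their summed linear values in a library, and it is compared only between libraries. The depth is unknown, and no counting error can be given. The column headings number the libraries of each population 2 and 3, a number that the sample labels do not explain. Libraries are named here by population and heading number, and library 2 or library 3 of both populations are spoken of as libraries with the same heading number. The correlation over genes, which do not count as replicates, was 0.984 and 0.982 between the populations at heading numbers 2 and 3 and 0.952 and 0.957 within the reporter+ and reporter- populations. The heading number therefore went with a closer likeness than the population did. *Pdgfra* itself, with log2 values of 7.78 and 7.62 in reporter+ libraries 2 and 3 and of 7.87 and 7.44 in reporter- libraries 2 and 3, did not separate the populations. The 9 markers of periosteal stromal cells, among them *Col1a1*, *Col3a1* and *Prrx1*, had a value in every library.

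Promoter sequences are shown for *Fbln1*, *Fbln5* and *Emilin1*, because these genes had the 3 kinds of pattern found among the libraries described below: higher at heading number 3, lower at heading number 3, and near level. They are the RefSeq windows on GRCm38.p6 that run from 250 bases before to 50 bases after the start, 5′ to 3′ on the strand of the gene, at the start nearest to the 5′ end of the gene in GENCODE M21. *Fbln1* and *Fbln5* each have 2 starts in RefSeq. The positions are chr15:85205699-85205998 on the plus strand for *Fbln1*, chr12:101819070-101819369 on the minus strand for *Fbln5* and chr5:30913536-30913835 on the plus strand for *Emilin1*. Capitals mark every match, on either strand, to TATAAA (the TATA box), CCAAT (the CCAAT box), GGGCGG (the GC box), TGANTCA (the AP-1 motif) or CAGAC (a SMAD half-site).
Fbln1: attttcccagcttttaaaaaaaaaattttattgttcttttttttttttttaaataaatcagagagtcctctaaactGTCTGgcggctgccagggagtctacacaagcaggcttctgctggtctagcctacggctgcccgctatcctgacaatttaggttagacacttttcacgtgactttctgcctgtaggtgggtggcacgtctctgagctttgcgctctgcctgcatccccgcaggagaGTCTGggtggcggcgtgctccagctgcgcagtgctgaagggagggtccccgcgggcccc
Fbln5: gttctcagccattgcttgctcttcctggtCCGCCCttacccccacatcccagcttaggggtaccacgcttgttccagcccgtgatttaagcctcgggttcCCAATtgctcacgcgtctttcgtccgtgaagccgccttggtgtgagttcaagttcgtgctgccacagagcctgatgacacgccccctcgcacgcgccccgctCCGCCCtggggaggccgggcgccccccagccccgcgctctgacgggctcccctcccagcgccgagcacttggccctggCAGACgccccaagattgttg
Emilin1: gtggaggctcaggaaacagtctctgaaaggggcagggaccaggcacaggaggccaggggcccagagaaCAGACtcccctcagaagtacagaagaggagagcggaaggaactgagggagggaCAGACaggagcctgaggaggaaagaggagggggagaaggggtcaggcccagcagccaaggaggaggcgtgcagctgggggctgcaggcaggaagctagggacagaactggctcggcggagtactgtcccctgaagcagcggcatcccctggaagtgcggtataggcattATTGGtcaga
The window of *Fbln1* held 2 matches to CAGAC. That of *Fbln5* held 2 to GGGCGG, 1 to CCAAT and 1 to CAGAC, and that of *Emilin1* held 2 to CAGAC and 1 to CCAAT. RefSeq windows were matched for 6 of the 10 genes, with *Fbn1*, *Fbln2* and *Mfap2* as the others, and these 6 held no match to TATAAA or TGANTCA. Over the 32851 windows searched, TATAAA was found in 13.6%, CCAAT in 37.4%, GGGCGG in 35.7%, TGANTCA in 7.81% and CAGAC in 49.6%. The GC content of the 3 windows shown was 51.7%, 65.7% and 61.7%, compared with a median of 52.7% over all windows.

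Between the populations, *Mfap5* stood apart from the other elastic fiber genes. It was lower in PDGFRα reporter+ cells by nearly the same amount at each heading number, whereas the other 9 genes differed by less than 0.6 on the log2 scale at each heading number, except *Mfap4*, and 4 of them in opposite directions. Of the 10 genes, 8 had a lower mean in reporter+ cells, compared with 50.9% of all genes tested. The median log2 difference (reporter+ minus reporter-) was −0.16 over the 10 genes and 0.00 over all genes, to 2 decimals. The median of the 10 turned positive, to 0.06 without reporter+ library 2 and to 0.18 without reporter- library 3, which leaves the heading numbers unbalanced between the populations.

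Elastin is the core protein of the fiber. *Eln* (chromosome 5, 134702593 to 134747323, minus strand) had log2 values of −3.63 and −1.67 in reporter+ libraries 2 and 3 and of −3.76 and −1.37 in reporter- libraries 2 and 3. All 4 values lay below 0, both libraries numbered 3 lay above both numbered 2, and the populations overlapped. The difference between the populations was −0.08 (SE 1.13, from limma), with 0.13 at heading number 2 and −0.30 at heading number 3. The antisense gene Gm30003 lies over *Eln* and had no value in any library.

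The fibrillins form the microfibril itself. *Fbn1* (chromosome 2, 125300594 to 125507993, minus strand), the fibrillin of adult tissue, had log2 values of 5.90 and 6.50 in reporter+ libraries 2 and 3, and of 6.11 and 7.09 in reporter- libraries 2 and 3. It was lower in reporter+ cells at both heading numbers, by −0.22 and −0.58, but reporter+ library 3 lay above reporter- library 2, so that the populations overlapped. The mean difference was −0.40 (SE 0.41). *Fbn2*, the fibrillin most used in the embryo, had log2 values of 0.42 and 0.84 in reporter+ libraries 2 and 3, and of 0.36 and 1.21 in reporter- libraries 2 and 3. Its difference was 0.06 at heading number 2 and −0.37 at heading number 3, with a mean of −0.16 (SE 0.40), so that the direction was not shared.

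**Figure D1:**
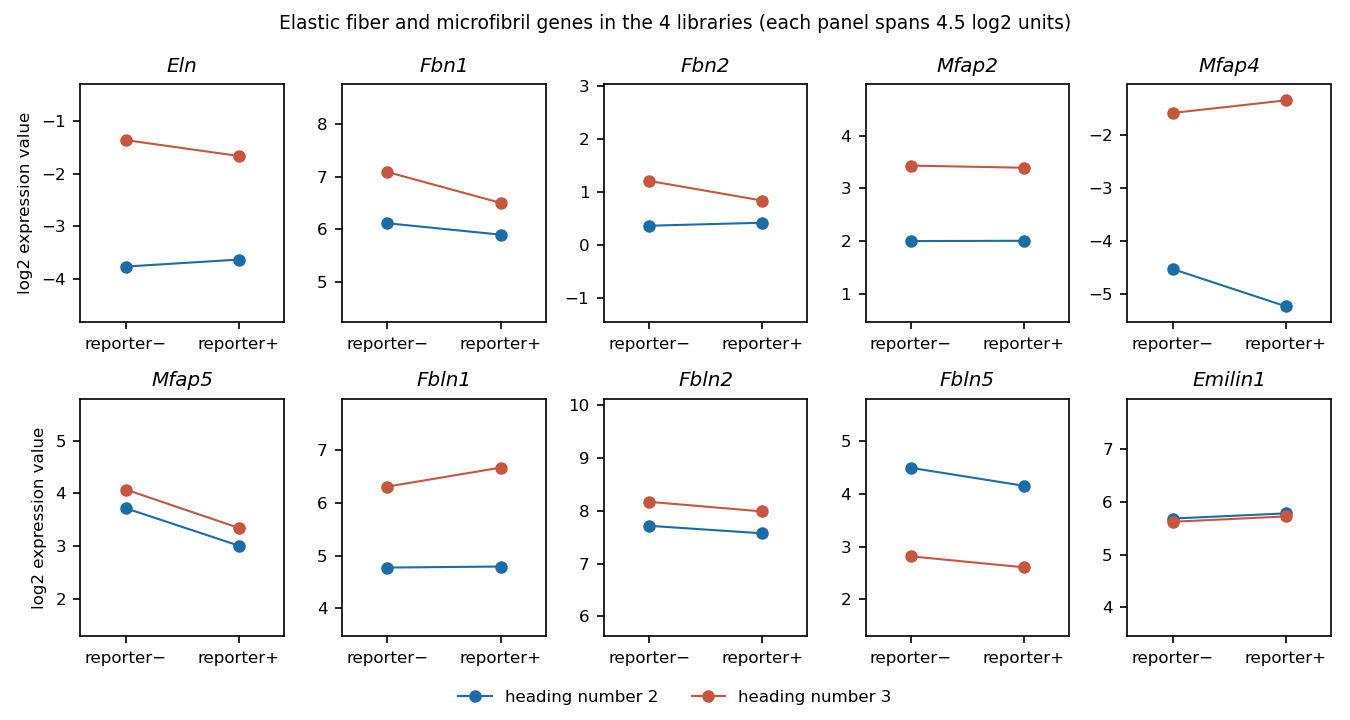
Log2 expression value (y axis) of each elastic fiber and microfibril gene in PDGFRα reporter- and PDGFRα reporter+ cells (x axis), with 1 point per library, lines that join libraries with the same heading number, and y axes of equal length centered on each gene. For *Mfap5* both lines fall from left to right by 0.71 and 0.73, whereas for *Eln*, *Mfap4*, *Fbln1* and *Fbln5* the gap between the lines exceeds their slope.

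The microfibril-associated proteins sit on the fibrillin scaffold. *Mfap5* (MAGP-2; chromosome 6, 122505845 to 122529290, plus strand) had log2 values of 3.01 and 3.35 in reporter+ libraries 2 and 3, and of 3.72 and 4.07 in reporter- libraries 2 and 3. Both reporter+ libraries lay below both reporter- libraries. The mean difference of −0.72 (SE 0.21), a level 1.64-fold higher in reporter- cells, was made up of −0.71 and −0.73 at heading numbers 2 and 3. The libraries of one population differed by 0.34 and 0.35, so that for this gene the distance between the populations exceeded that between the heading numbers. When any 1 library was dropped, the difference of *Mfap5* ran from −0.89 to −0.54.

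*Mfap2* (MAGP-1; chromosome 4, 141010418 to 141015984, plus strand) is its closest relative on the microfibril. Its log2 values were 2.01 and 3.39 in reporter+ libraries 2 and 3, and 2.00 and 3.43 in reporter- libraries 2 and 3. The populations were near level at each heading number, with differences of 0.0049 and −0.04 (mean −0.02, SE 0.68), whereas the libraries numbered 3 lay above those numbered 2 by 1.38 and 1.43. *Mfap2* and *Mfap5* thus differed in both respects.

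*Mfap4* (chromosome 11, 61485431 to 61488900, plus strand) binds elastin and microfibrils through a fibrinogen-like domain. It had log2 values of −5.24 and −1.34 in reporter+ libraries 2 and 3, and of −4.53 and −1.58 in reporter- libraries 2 and 3. All lay below 0, and the spread within each population was the widest of the 10 genes. The difference was −0.71 at heading number 2 and 0.24 at heading number 3, with a mean of −0.23 (SE 1.71) that became 0.02 with a pseudocount of 1. *Mapk7* overlaps *Mfap4* on the opposite strand and had values from 2.41 to 2.49 in the 4 libraries. Whether reads were counted by strand is not given in the sources used here, and the part of overlapping reads in the value of *Mfap4* was not tested.

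Fibulins bridge elastin and microfibrils. *Fbln1* (chromosome 15, 85205949 to 85286535, plus strand), which is found within the elastin core, had the largest positive difference of the 10 genes, of 0.19 (SE 0.82). Its log2 values were 4.79 and 6.66 in reporter+ libraries 2 and 3, and 4.77 and 6.30 in reporter- libraries 2 and 3, and the populations overlapped. The difference came from heading number 3 (0.36), with 0.02 at heading number 2.

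*Fbln2* (chromosome 6, 91212455 to 91272540, plus strand), which lies between the elastin core and the microfibrils, had log2 values of 7.57 and 7.99 in reporter+ libraries 2 and 3, and of 7.72 and 8.17 in reporter- libraries 2 and 3. It was lower in reporter+ cells at both heading numbers, by −0.14 and −0.18 (mean −0.16, SE 0.28), less than the distance between libraries of one population. *Fbln5* (chromosome 12, 101746565 to 101819055, minus strand), which brings elastin onto microfibrils, had log2 values of 4.15 and 2.61 in reporter+ libraries 2 and 3, and of 4.49 and 2.82 in reporter- libraries 2 and 3. It was lower in reporter+ cells at both heading numbers, by −0.34 and −0.21 (mean −0.27, SE 0.77), with overlapping populations. It was the one fibulin of the 3 that was lower in the libraries numbered 3.

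*Emilin1* (chromosome 5, 30913402 to 30921277, plus strand) codes for a glycoprotein at the interface of elastin and microfibrils. It had log2 values of 5.78 and 5.72 in reporter+ libraries 2 and 3, and of 5.68 and 5.62 in reporter- libraries 2 and 3. Both reporter+ libraries lay above both reporter- libraries, but by a small amount, with 0.10 at each heading number (mean 0.10, SE 0.14). It varied least among libraries of the 10 genes, with an SD of 0.04 within each population (n = 2).

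**Figure D2:**
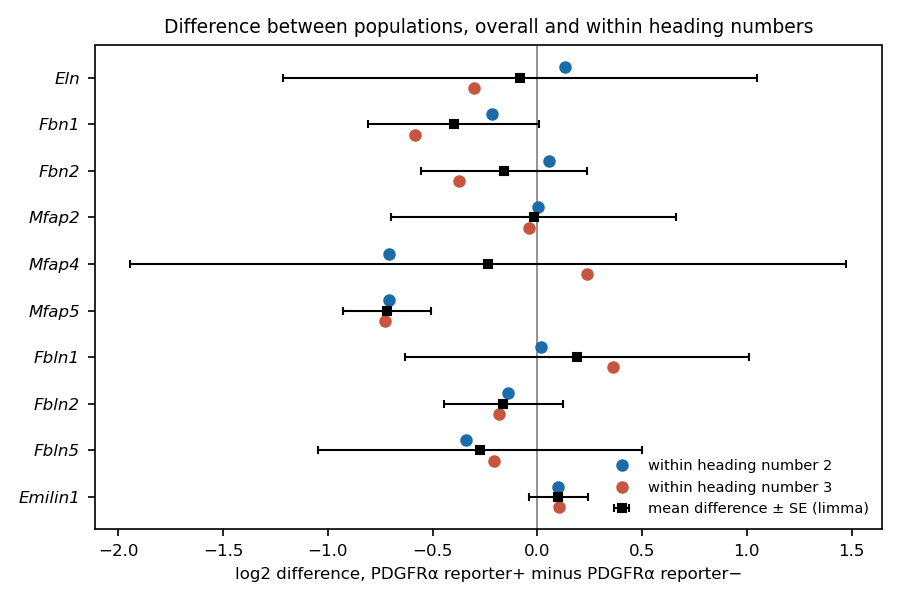
Log2 difference between PDGFRα reporter+ and PDGFRα reporter- cells (x axis) for each gene (y axis), as the mean with its SE from limma (black squares) and within heading numbers 2 and 3 (colored points). Both points of *Mfap5* lie near −0.7, those of *Emilin1* near 0.1, and those of *Eln*, *Fbn2*, *Mfap2* and *Mfap4* lie on both sides of 0.

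Counted over the 10 genes, the populations did not overlap for *Mfap5* (lower in reporter+ cells) and *Emilin1* (higher). Over all genes tested, 8.10% were lower and 7.59% higher without overlap. The sign was the same at both heading numbers for 6 of the 10 genes (*Fbn1*, *Mfap5*, *Fbln1*, *Fbln2*, *Fbln5* and *Emilin1*), compared with 46.8% of all genes. In the fit of limma across all 14415 genes, with no term for the heading number, 0 genes reached an adjusted p under 0.05 (0% of the genes tested), and 131 genes (0.909%) had an unadjusted p under 0.05. With the heading number as a replicate block, 29 genes had an adjusted and 913 an unadjusted p under 0.05 (limma). Since these comparisons were known when the list was made, nothing is read from these counts. The libraries were labelled as replicates without a statement that they came from separate cultures, so that the spread between them may be technical. The SE from limma draws this spread toward that typical of genes at a like level. For *Emilin1* it was 0.14 beside SDs of 0.04 within each population. For *Eln* it was 1.13 beside SDs of 1.39 in reporter+ and 1.69 in reporter- cells. In bulk RNA, fewer cells of a type and less RNA per cell cannot be told apart.

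The difference between the heading numbers was larger than that between the populations for 8 of the 10 genes, all but *Mfap5* and *Emilin1*, compared with 75.7% of all genes. Library 3 lay above library 2 in both populations for 8 of the 10 genes (41.1% of all genes) and below it in both for *Fbln5* and *Emilin1* (32.7% of all genes). Averaged over the populations, the log2 difference (3 minus 2) was 3.43 for *Mfap4*, 2.18 for *Eln*, 1.70 for *Fbln1* and 1.41 for *Mfap2*. It was smaller for *Fbn1* (0.79), *Fbn2* (0.63), *Fbln2* (0.43) and *Mfap5* (0.34), and it was −1.61 for *Fbln5* and −0.06 for *Emilin1*. On a linear scale *Eln* was 4.52-fold and *Fbln1* 3.26-fold higher in the libraries numbered 3, and *Fbln5* was 3.05-fold higher in those numbered 2.

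The size of this difference was over 1 on the log2 scale for 5 of the 10 genes, compared with 15.1% of all genes. *Eln* and *Mfap4*, with mean values below 0, belong to the genes that varied more. The median size was 0.68 over all genes with a mean below 0 and 0.24 over those with a mean of at least 0. Among the 8 elastic fiber genes with mean values of 0 or more, it was over 1 for 3 (*Mfap2*, *Fbln1* and *Fbln5*), compared with 7.17% of all genes at that level. The heading number is no group of the study, so this difference was not tested. Summed log2 levels of smooth muscle and pericyte, macrophage and endothelial markers also lay higher at heading number 3 in both populations. Those of smooth muscle cells and pericytes were 4.93 beside 4.25 in reporter+ and 5.58 beside 5.36 in reporter- cells. Those of macrophages were 8.16 beside 7.94 and 7.53 beside 6.62. Such a sum follows the largest values in it, as those of *Lyz2* and *Cd34*, and does not stand for each marker. On average 7 of 10, 11 of 12 and 6 of 9 of these markers were higher there, compared with 7837 of all 14415 genes. Lower there were *Myh11*, *Des* (−0.76), *Cspg4* (−2.16), *Cd14*, *Cdh5*, *Vwf* (−0.73) and *Erg* (−3.03). *C1qa*, *C1qb*, *C1qc* and *Cd68* were lower there in reporter+ cells but higher in reporter- cells. Of the Schwann cell and chondrocyte markers, 1 of 5 and 2 of 5 were higher there on average. Of the 9 periosteal stromal markers, 3 were higher at heading number 3 on average (*Col3a1*, *Pdgfrb* and *Postn*), and the median difference (3 minus 2) was −0.29. The summed level of these markers was nonetheless higher at heading number 3 in both populations, where *Col3a1* was higher by 0.93 in reporter+ and 1.12 in reporter- cells. Their part in the differences of the elastic fiber genes was not tested.

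**Figure D3:**
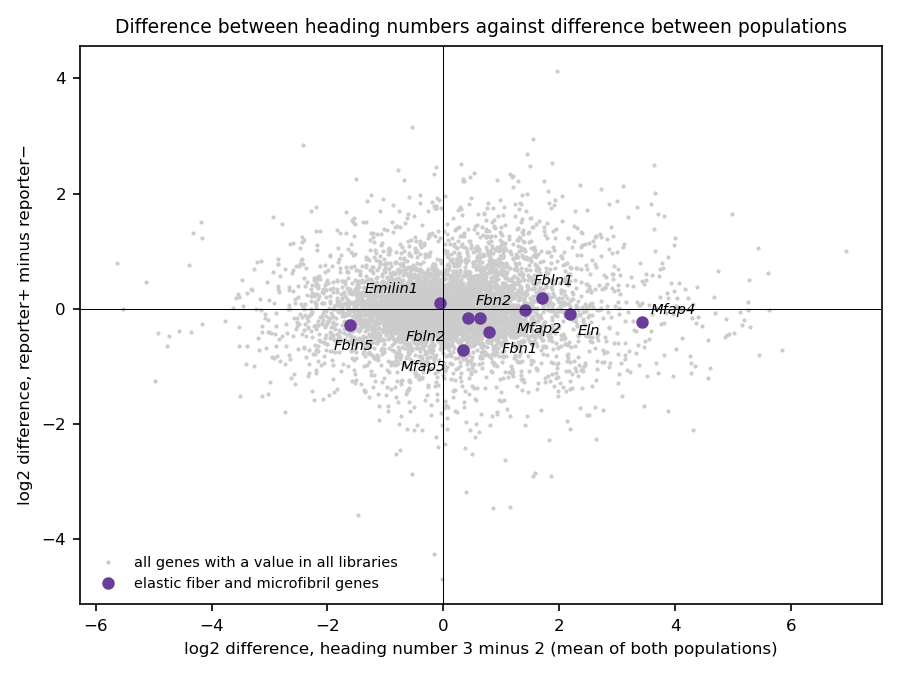
Log2 difference between heading numbers 3 and 2, averaged over both populations (x axis), against the log2 difference between PDGFRα reporter+ and PDGFRα reporter- cells (y axis), for all 14415 genes (grey) and the elastic fiber and microfibril genes (purple). The 10 genes spread from −1.61 to 3.43 along the x axis and from −0.72 to 0.19 along the y axis.

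The patterns of the 10 genes over the 4 libraries were also compared with each other. After each gene's own mean was subtracted, the root mean square difference was smallest between *Fbn2* and *Fbln2* (0.139), followed by *Fbn1* and *Fbn2* (0.144) and by *Mfap2* and *Fbln1* (0.205). Outside the list, the genes closest to *Mfap5* among the 10216 genes with mean values of 0 or more were *Sdpr* (0.0376), *Slco2a1* (0.0558) and *Gstp2* (0.0713). *Sdpr* (cavin 2, a caveolar coat protein) had log2 values of 2.79 and 3.13 in reporter+ libraries 2 and 3 and of 3.59 and 3.86 in reporter- libraries 2 and 3. *Slco2a1*, a prostaglandin transporter, had 4.15 and 4.47 in reporter+ cells and 4.99 and 5.27 in reporter- cells. The genes closest to *Eln* were *Acss3* (0.0813), *Ace* (0.102) and *Itga9* (0.107), and those closest to *Fbln1* were *Sema6d* (0.0249), *Scara5* (0.0745) and *Arxes2* (0.0765). These are likenesses over 4 libraries only. The measure was not scaled to how much a gene varied, and pairs of genes outside the list were not measured.

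The other genes of elastic fiber assembly and turnover were examined with a list of 52 genes, of which 47 had a value in all libraries. With limma and no term for the heading number, 0 of the 47 had an adjusted p under 0.05 over all genes tested, and 7 had an unadjusted p under 0.05, of which 6 were higher and 1 lower in reporter+ cells. These 7 are *Mmp9*, *Mmp12*, *Ctss*, *Ctsk*, *Dcn* and *Tgfb2*, all higher, and *Mmrn2*, lower. Over all 14415 genes the share was 0.909%, with 65 higher and 66 lower. The count among the 47 was 2 without reporter+ library 2, 4 without reporter+ library 3, 3 without reporter- library 2 and 5 without reporter- library 3. The median log2 difference of the 47 genes was −0.01. With the heading number as a replicate block in limma, 13 of the 47 had an unadjusted and 0 an adjusted p under 0.05.

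The lysyl oxidases, which cross-link elastin and collagen, had a median log2 difference of −0.04 over 5 genes, and 0 of them had an unadjusted p under 0.05. *Loxl3* had the largest difference in size (−0.36, SE 0.22), with −0.58 and −0.13 at heading numbers 2 and 3. *Lox*, the founding member, had log2 values of 7.91 and 7.19 in reporter+ libraries 2 and 3 and of 7.88 and 6.67 in reporter- libraries 2 and 3, a difference of 0.27 (SE 0.50). The lysyl oxidases did not share a direction between the heading numbers. *Loxl1* and *Loxl2* were higher in the libraries numbered 3 in both populations, with mean differences of 0.65 and 1.85, as was *Eln*. *Lox*, *Loxl3* and *Loxl4* were lower there in both populations, with −0.96, −0.31 and −0.84.

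Among the other fibulins and the hemicentins, *Fbln7* had a difference of 0.44 (SE 0.45), which came from heading number 2 (0.83, and 0.04 at number 3). *Efemp1* (fibulin 3) had one of −0.22 (SE 0.66), and *Efemp1* was higher by 1.33 in the libraries numbered 3. Of the other EMILINs and multimerins, *Emilin2* was lower in both reporter+ libraries, with values of 5.61 and 5.69 beside 5.88 and 5.89 in reporter- libraries, a difference of −0.24 (SE 0.14). *Emilin1* and *Emilin2* thus lay on opposite sides of 0, each with a difference under 0.3 in size. *Mmrn2*, a matrix protein of endothelial cells, had values from −5.16 to −2.34 and a difference of −2.01 (SE 0.65; limma, unadjusted p = 0.0319 and adjusted p = 1). The endothelial markers *Cdh5* and *Pecam1* had differences of −4.26 and −3.19. Of the 9 endothelial markers with a value in all libraries 8 were lower in reporter+ cells, with a summed log2 level of 3.14 and 3.79 in reporter+ libraries and 3.89 and 4.47 in reporter- libraries. This sum follows the largest values in it, among them those of *Cd34*, which stromal cells also express, and does not stand for each marker. *Cd34* had log2 values of 2.28 and 3.38 in reporter+ and of 3.28 and 3.97 in reporter- libraries 2 and 3. The differences were −3.44 for *Emcn*, −1.82 for *Kdr*, −0.77 for *Tek*, −0.40 for *Erg*, −0.04 for *Egfl7* and 0.09 for *Vwf*. The sort had kept cells negative for CD31, the product of *Pecam1*, and the part of endothelial cells in the value of *Mmrn2* was not tested.

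The latent TGF-β binding proteins had a median difference of −0.20 over 4 genes, and 0 of them had an unadjusted p under 0.05. All 4 means were below 0, as for 50.9% of all genes, but that of *Ltbp3* was −0.0095. The differences of largest size were those of *Ltbp1* (−0.38, SE 0.23) and *Ltbp2* (−0.22, SE 0.93). *Ltbp1* was lower at both heading numbers, by −0.25 and −0.51, and its values did not overlap between the populations. *Ltbp2*, which binds fibulin 5, had a difference of 0.23 at heading number 2 and of −0.67 at heading number 3, and it was lower by 1.90 in the libraries numbered 3, in the same direction as *Fbln5*. Of the TGF-β ligands held by these proteins, *Tgfb2* had log2 values of 3.34 and 3.25 in reporter+ libraries and of 2.74 and 2.82 in reporter- libraries, a difference of 0.51 (SE 0.15; limma, unadjusted p = 0.0218 and adjusted p = 1). *Tgfb1* had a difference of 0.04 (SE 0.45). Of the 7 microfibril-associated ADAMTS and ADAMTS-like genes with a value in all libraries, 0 had an unadjusted p under 0.05, and the largest differences were those of *Adamtsl5* (−0.31, SE 0.42) and *Adamtsl3* (−0.28, SE 0.53).

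Of the matrix partners of elastic fibers, *Dcn* (decorin, a small proteoglycan that binds collagen and microfibrils) had the largest difference, of 1.39 (SE 0.39; limma, unadjusted p = 0.0187 and adjusted p = 1). Its log2 values were 7.47 and 8.49 in reporter+ libraries 2 and 3, and 6.67 and 6.51 in reporter- libraries 2 and 3. *Fn1* (fibronectin, on which microfibrils assemble) had a difference of −0.54 (SE 0.46). In the elastin receptor and copper transport list, *Neu1* (0.15, SE 0.25) and *Atp7a* (0.13, SE 0.19) had the largest differences, and 0 of the 4 genes had an unadjusted p under 0.05. *Mfap3l* (−0.55, SE 0.35) and *Mfap3* (0.13, SE 0.19) share a name with the microfibril genes but are not known as parts of the microfibril.

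The elastin-degrading proteases had the largest positive median among these lists, of 1.02 over the 6 of 8 genes with a value in all libraries, and the means of these 6 were higher in reporter+ cells. Of the other 2, *Elane* (neutrophil elastase) was blank in both reporter+ libraries and had log2 values of −4.24 and −5.31 in reporter- libraries 2 and 3, and *Mmp7* was blank in every library. *Mmp9* (gelatinase B) had log2 values of 3.21 and 3.89 in reporter+ libraries and of 2.18 and 1.41 in reporter- libraries, a difference of 1.75 (SE 0.37; limma, unadjusted p = 0.00719 and adjusted p = 1). *Ctss* (cathepsin S) had 3.31 and 2.92 beside 1.28 and 2.13, a difference of 1.41 (SE 0.35; limma, unadjusted p = 0.0127 and adjusted p = 1). *Mmp12* (macrophage elastase) had a difference of 1.90 (SE 0.64) at values below 0, and *Ctsk* (cathepsin K) one of 0.39 (SE 0.13). *Ctsl* had one of 0.63 (SE 0.42). *Mmp2* was near level at 0.06 (SE 0.64), with −0.16 and 0.28 at heading numbers 2 and 3. The means of all 12 macrophage markers were also higher in reporter+ cells, with a median difference of 0.96, and their summed log2 level was 7.94 and 8.16 in reporter+ libraries and 6.62 and 7.53 in reporter- libraries. *Lyz2* had log2 values of 7.65 and 7.88 in reporter+ and of 6.27 and 7.25 in reporter- libraries. *Ptprc* (CD45) had values from −2.30 to −0.39, and no macrophage marker was blank. The sort had kept cells negative for CD45, and the part of macrophage RNA in the values of the proteases was not tested.

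**Figure D4:**
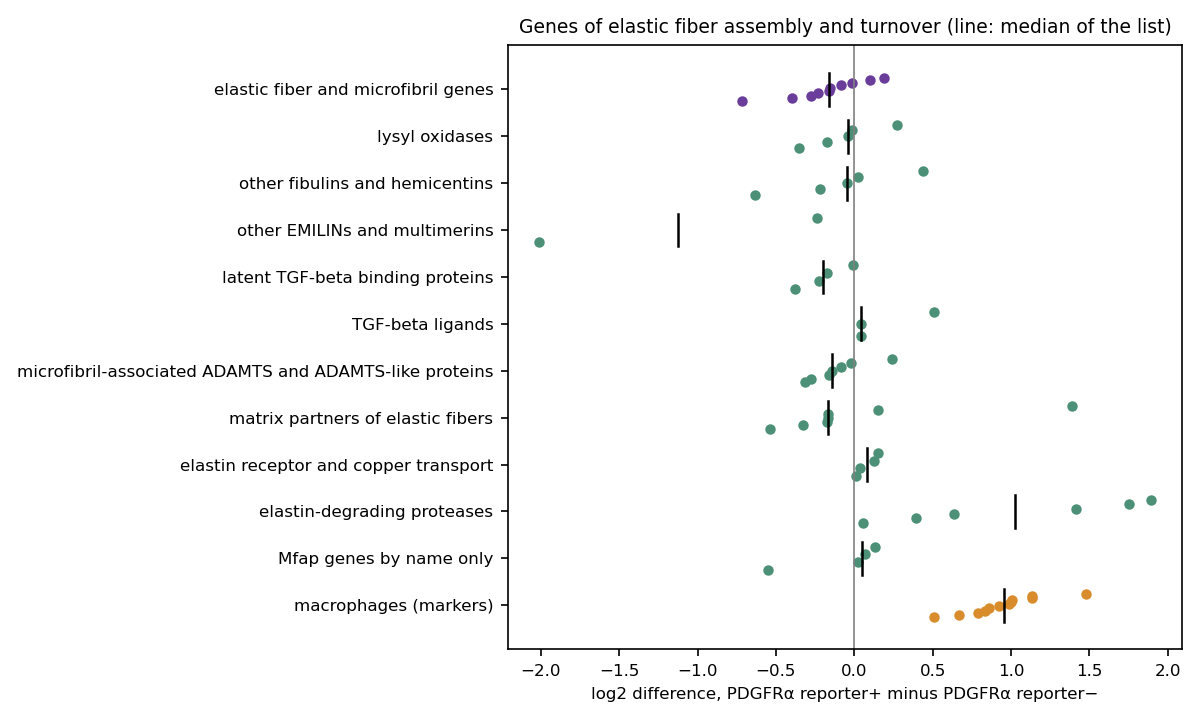
Log2 difference between PDGFRα reporter+ and PDGFRα reporter- cells (x axis) for each gene of the elastic fiber and microfibril list (purple), of the lists of elastic fiber assembly and turnover (green) and of the macrophage markers (orange), with 1 point per gene and a line at the median of each list. The medians of the elastin-degrading proteases (1.02) and the macrophage markers (0.96) lie to the right of the others, and that of the elastic fiber genes is −0.16.

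Markers of other cell types that make elastic fibers or share their genes were also examined. Of 10 markers of smooth muscle cells and pericytes, 9 had a lower mean in reporter+ cells, among them *Myh11* (−2.39), *Actg2* (−2.096) and *Acta2* (−1.27). Their summed log2 level was 4.25 and 4.93 in reporter+ libraries and 5.36 and 5.58 in reporter- libraries. Of the 10 elastic fiber genes, *Fbn1*, *Mfap5*, *Fbln2* and *Fbln5* were also lower in reporter+ cells at both heading numbers, whereas *Fbln1* and *Emilin1* were higher at both. The part of smooth muscle cells in their values was not tested. Of the chondrocyte and Schwann cell markers with a value in all libraries, 3 of 5 and 1 of 5 had a higher mean in reporter+ cells. The erythroid genes *Hbb-bs*, *Hbb-bt* and *Alas2* had no value in any library.

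Beside related matrix families, which share these libraries, the median difference of −0.16 over the elastic fiber genes compares with −0.06 over 11 fibrillar collagen genes and with 0.15 over the 11 of 12 small leucine-rich proteoglycan genes with a value in all libraries. Their ranges were −0.72 to 0.19, −1.51 to 0.45 and −0.64 to 2.30. Between the heading numbers the median difference was 0.71 over the elastic fiber genes, −0.29 over the fibrillar collagens and −0.14 over the proteoglycans, compared with 0.05 over all genes. The difference between these families was not tested.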

How the data were processed

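Stranded paired-end libraries of total RNA were sequenced by the authors on an Illumina NextSeq, and bcl2fastq 2.17.1.14, Partek 7.0 and build GRCm38.p6 are named in the submitters' processing notes. The aligner, the counting and the annotation are not given in the sources used here. The authors quantile normalized the data and deposited them as log2 values, 1 for each symbol in each library. The headings give the population and a number (2 or 3), so libraries were assigned to a population only.

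The log2 difference is the reporter+ mean minus the reporter- mean, over 14415 genes with a value in all libraries. Its SE and p come from limma 3.58.1 in R 4.3.3 (lmFit, eBayes with a trend, two-sided, all 4 libraries, no block). The p-values were adjusted over all genes by the Benjamini-Hochberg method, with a threshold of 0.05. The script was tested on simulated data with known changes, with less spread than these libraries and no difference between heading numbers. That test does not show how the fit performs on these data. An exact permutation test of 2 against 2 libraries cannot give a p below 0.333 and was not used. Summaries were made with Python 3.11.15, pandas 2.3.3 and matplotlib 3.10.9. Gene positions are those of GENCODE M21 on GRCm38, and all 10 symbols matched. Promoter windows on chromosome 18 were left out of the matching to genes and of the motif search.

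The members and lists were chosen with earlier results of these data known. The genes named are the 10 members, up to 2 genes per list with the largest difference in size and a mean of at least 0, and up to 3 genes most like *Eln* and the members with the largest negative (*Mfap5*) and the largest positive (*Fbln1*) difference. *Mmrn2*, *Mmp2*, *Mmp12*, *Ctsk*, *Ctsl*, *Loxl1*, *Loxl2*, *Loxl4*, *Ltbp3*, *Elane*, *Mmp7*, *Mapk7* and the markers were named after their values were seen.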

Additional observations from a re-analysis of the deposited data

How the results depend on the processing

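The numbers in the headings are not known to mark shared preparations. With the heading number as a replicate block, which cannot move a mean difference in this balanced layout, the SE of the 10 genes ran from 0.12 (*Emilin1*) to 0.50 (*Mfap4*), beside 0.14 and 1.71 without it, and that of *Fbn1* and *Fbln5* was 0.14 and 0.12 beside 0.41 and 0.77. Under the block 0 of 47 pathway genes had an adjusted p under 0.05 (limma), and 13 had an unadjusted p under 0.05. Over all genes, 29 then had an adjusted and 913 an unadjusted p under 0.05. The deviations of same-numbered libraries from their population means had a correlation of 0.681 across genes. The settings differed in the number of genes tested. An unadjusted p under 0.05 (limma) was found for 62 of 10224 genes with a mean of at least 0. It was found for 262 of 16742 genes with blanks at the lowest value and for 273 of 14415 without a trend of the variance. The cause of these changes was not tested. With each library left out in turn, which unbalances the heading numbers, the median difference of the 10 genes ran from −0.70 to 0.18, the number of them higher in reporter+ cells from 2 to 8, and the number of pathway genes with an unadjusted p under 0.05 from 2 to 5. Under these 4 settings *Mfap5* and *Emilin1* kept their sign, and the other 8 genes did not. With a pseudocount of 1 *Mfap4* changed sign, to 0.02, and the median became −0.07. Centering the libraries changed no direction among the 10 genes. Depth is unknown, and *Eln* and *Mfap4*, with values below 0, have the widest SE.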
